A study of Mus musculus with 6 samples.

Results

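The 10 genes described here encode RNA-binding proteins known for setting tissue-specific splicing: Celf1, Celf2, Mbnl1, Mbnl2, Mbnl3, Rbfox2, Qki, Esrp1, Esrp2 and Khdrbs1. They were chosen by name, out of 55331 genes in the gene table, and every splicing event that carries one of these symbols was taken with them, 126 events in all. The libraries hold poly(A) RNA of crypt cells from the mouse small intestine, sequenced as 3 libraries per genotype. The WT mice carried floxed Ptbp1 alleles (Ptbp1f/f) and no Cre. The PTBP1_KO mice carried the same alleles together with Vil-creER+/-, a Cre recombinase fused to an estrogen receptor and driven by villin sequence, which acts in intestinal epithelium once tamoxifen is given. All mice were C57BL/6, 60 days old and had received tamoxifen at 100 mg/kg in 2 daily injections, and crypts were collected 20 h after the last one. Floxed alleles and tamoxifen were therefore common to both groups, and the transgene itself was carried by the PTBP1_KO group alone. Nothing in the labels says whether each library came from a separate mouse, so the p-values measure the spread between these libraries.

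These proteins bind short motifs in a pre-mRNA, and the position of the bound site relative to an exon helps set whether that exon is kept or skipped. CELF and MBNL proteins are known for opposing effects on many exons of heart and muscle, and both also act on mRNA stability through 3' untranslated regions. ESRP proteins mark epithelial cells, including those of the intestine, and switch exons between epithelial and mesenchymal forms. PTBP1, the product of the floxed gene, is a broadly expressed repressor of exons flanked by pyrimidine-rich sequence. Several of these regulators are also regulated by splicing of their own transcripts.

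The exons that the splicing results turn on are shown first. A homologous 36 nt exon of the Mbnl genes, known in Mbnl1 for a part in self-association of the protein, changed in Mbnl2. It lies at chr14:120403336-120403371 on the plus strand in Mbnl2, at chr3:60621423-60621458 on the plus strand in Mbnl1 and at chrX:51126126-51126161 on the minus strand in Mbnl3 (mm10, GENCODE M21 transcripts). It is annotated as coding sequence in Mbnl1 and Mbnl2, and in 1 of 2 transcripts that hold it in Mbnl3. The copies are printed 5' to 3' so that they can be compared, and capitals mark the 23 bases that are identical in all 3.
Mbnl1 36 nt exon: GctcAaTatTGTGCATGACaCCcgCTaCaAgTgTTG
Mbnl2 36 nt exon: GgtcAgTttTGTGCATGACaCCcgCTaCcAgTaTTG
Mbnl3 36 nt exon: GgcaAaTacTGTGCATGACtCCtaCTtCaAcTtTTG
Mbnl1 and Mbnl2 share 31 of the 36 bases (86.1%), and Mbnl3 shares 26 with Mbnl1 and 24 with Mbnl2.

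A second homologous coding exon, of 54 nt, is known in Mbnl1 for nuclear localisation and for regulation by MBNL proteins themselves. It lies at chr3:60614683-60614736 in Mbnl1 and at chr14:120395712-120395765 in Mbnl2, both on the plus strand. Capitals mark the 46 bases (85.2%) that the copies share, which is close to the share for the 36 nt exon, and the exon is shown because its inclusion did not pass the test in either gene.
Mbnl1 54 nt exon: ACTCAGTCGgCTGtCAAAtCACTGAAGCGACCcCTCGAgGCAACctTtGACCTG
Mbnl2 54 nt exon: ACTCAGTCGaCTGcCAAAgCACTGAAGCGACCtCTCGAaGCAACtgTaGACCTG

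In Esrp1, 2 neighbouring exons near the 3' end of the transcript changed. They lie at chr4:11344112-11344262 (151 nt) and chr4:11338722-11338831 (110 nt), both on the minus strand. The first is coding. The second is printed as its first 91 bases because both annotated stop codons, marked by capitals, lie in them.
Esrp1 110 nt exon, first 91 bases: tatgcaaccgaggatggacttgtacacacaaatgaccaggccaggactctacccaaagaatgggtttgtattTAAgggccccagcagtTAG
The stop codon that ends 75 bases into the 110 nt exon is used by transcripts that also hold the 151 nt exon. The one that ends after 91 bases is used by a transcript that skips it. Since 151 is not a multiple of 3, skipping that exon moves the reading frame.

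The level of each gene is given as FPKM, fragments scaled by transcript length and library size, for which the authors deposited a single value per group. No spread between libraries could be computed from it, and its depth is unknown. In the authors' deposited table, Ptbp1 was listed at 230.0 FPKM in WT and 122.8 FPKM in PTBP1_KO, 53.4% of the WT value (log2 fold change -0.91, Cuffdiff q = 0.0125). In these bulk samples, fewer cells of a type and less RNA per cell cannot be told apart. The 8 epithelial markers (Epcam, Cdh1, Vil1, Krt8, Krt19, Cdx2, Lgr5 and Olfm4) summed to 5741 FPKM in WT and 6175 FPKM in PTBP1_KO, none at a q below 0.05 by Cuffdiff and none at an unadjusted p below 0.05. The 8 stromal markers (Col1a1, Col1a2, Col3a1, Vim, Acta2, Myh11, Pecam1 and Pdgfra) summed to 7.03 and 7.84 FPKM, with none at a q below 0.05. Vim, the highest of them, went from 4.90 to 6.28 FPKM, while the 3 at an unadjusted p below 0.05 in the authors' deposited table were lower in PTBP1_KO and below 1 FPKM in both groups (log2 fold changes of Col1a1 -1.34, Col3a1 -1.19 and Col1a2 -1.13). The 5 neural markers summed to 1.02 and 0.916 FPKM. Blood cell markers (Ptprc, Cd3e, Cd3g, Cd8a, Cd52, Gzma, Gzmb and Itgae) were higher in PTBP1_KO in 8 of 8 cases, with a sum of 116 FPKM in WT and 201 FPKM in PTBP1_KO, and Gzma, Gzmb and Cd8a passed a q of 0.05 in the authors' deposited table.

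None of the 10 regulators passed the authors' test for a difference in level (Cuffdiff, q below 0.05), against 0.537% of the 15460 genes tested. At an unadjusted p below 0.05, 1 of the 10, Celf2, was reached, against 4.35% of all genes tested. The value in PTBP1_KO was the higher one for 8 members and the lower one for Mbnl2 and Esrp1. Their median log2((PTBP1_KO + 1)/(WT + 1)) was 0.19, beside 0.02 over all tested genes, of which 8455 were higher and 7005 lower. Since FPKM is scaled by transcript length, levels can also be set side by side between genes. By their FPKM in WT the members stood in the order Celf1, Mbnl2, Esrp1, Mbnl1, Khdrbs1, Esrp2, Rbfox2, Mbnl3, Celf2 and Qki. The first 6 ranged from 32.3 to 45.2 FPKM, and with no spread per group the order among neighbours could not be tested.

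**Figure D1:**
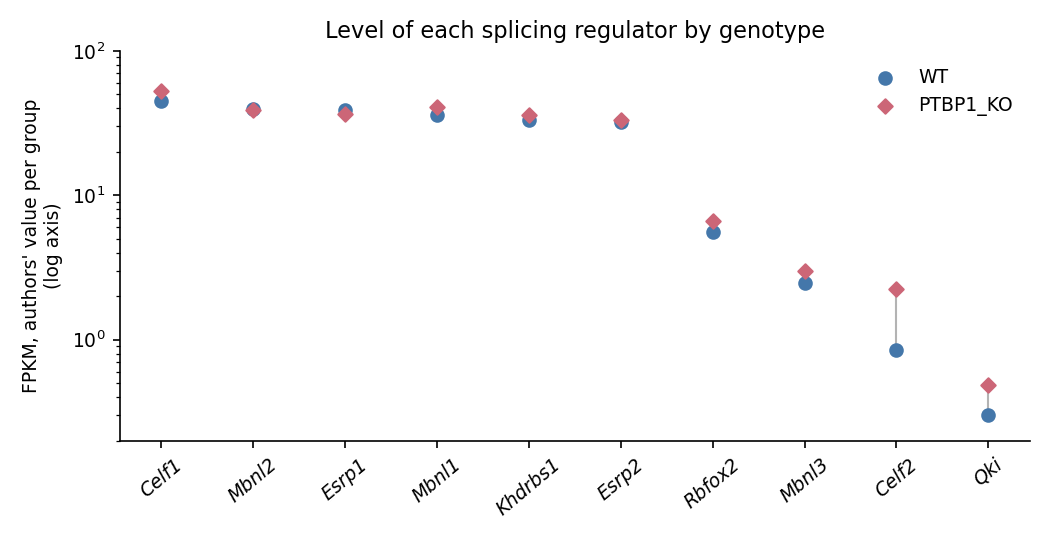
The authors' FPKM of each regulator (log axis) in WT (circles) and PTBP1_KO (diamonds), 1 value per group and no error available. In 6 genes both values lie between 32.3 and 52.7 FPKM, and the widest gap on this axis is that of Celf2, from 0.851 to 2.23 FPKM.

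Both ESRP genes were at levels typical of the leading members. Esrp1 (chr4:11331933-11386783) was listed at 38.6 FPKM in WT and 36.7 FPKM in PTBP1_KO in the authors' deposited table (Cuffdiff, log2 fold change -0.07, p = 0.621). Esrp2 (chr8:106130319-106136974), its closest relative, was listed in the authors' deposited table at 32.3 and 33.3 FPKM (Cuffdiff, 0.04, p = 0.861). Khdrbs1 (chr4:129703164-129742303), which encodes the signalling-responsive STAR protein Sam68, was listed at 33.3 and 36.1 FPKM in the authors' deposited table (0.12, p = 0.426).

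The MBNL genes, which encode zinc finger proteins known from myotonic dystrophy, fell into a pair at similar levels and Mbnl3 well below them. Mbnl2 (chr14:120275669-120431697) was at 39.4 FPKM in WT and 38.7 FPKM in PTBP1_KO in the authors' deposited table (-0.03, p = 0.860). Mbnl1 (chr3:60472830-60629750) was at 35.6 and 40.5 FPKM in the authors' deposited table (Cuffdiff, 0.19, p = 0.259). Mbnl3 (chrX:51117269-51206532) was at 2.48 and 2.99 FPKM in the authors' deposited table (0.27, p = 0.237), more than 10 times below its paralogs.

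Celf1 (chr2:90940382-91019497), a regulator of splicing and of the decay of mRNAs with GU-rich elements, had the highest level of the members, 45.2 FPKM in WT and 52.7 FPKM in PTBP1_KO in the authors' deposited table (0.22, p = 0.168). Its paralog Celf2 (chr2:6539694-7509563), prominent in the nervous system and in T cells, was listed in the authors' deposited table at 0.851 FPKM in WT and 2.23 FPKM in PTBP1_KO, 262% of the WT value (log2 fold change 1.39, p = 0.00780, Cuffdiff q = 0.466). The difference did not pass the authors' test after adjustment. Blood cell markers moved the same way between the groups, Ptprc from 5.96 to 9.26 FPKM and Cd3e from 5.66 to 8.68 FPKM, and their part in the Celf2 value was not tested. All 5 neural markers, among them Elavl4 and Tubb3, were below 1 FPKM in both groups.

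The remaining members were lower still or near the middle of the range. Rbfox2 (chr15:77078990-77307004), which binds the element UGCAUG, was at 5.56 and 6.60 FPKM in the authors' deposited table (0.25, p = 0.229). Qki (chr17:10202601-10319854, listed under its synonym Qk), a STAR protein best known from myelinating glia, was at 0.300 and 0.489 FPKM in the authors' deposited table (Cuffdiff, 0.71, p = 0.129). The adjusted value was q = 0.9998 in the authors' deposited table for every member other than Celf2.

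A wider list of 24 regulators of the CELF, RBFOX, KHDRBS, ELAVL, NOVA, MSI, RBM, SRRM and TIA families gave the same count of calls. Of these, 11 had been tested by Cuffdiff, none passed a q of 0.05 and none reached an unadjusted p of 0.05, with 7 higher and 4 lower and a median log2((PTBP1_KO + 1)/(WT + 1)) of 0.03. Of the 24, 14 were below 1 FPKM in both groups, among them the neuronal regulators Nova1, Nova2, Rbfox1, Rbfox3, Srrm4 and Elavl2. Those above 10 FPKM were listed in the authors' deposited table, WT first, at 59.9 and 67.7 FPKM for Rbm47, an epithelial RNA-binding protein, and at 50.3 and 48.9 FPKM for Tial1. Elavl1, which stabilises AU-rich mRNAs, was at 39.0 and 40.5 FPKM in the authors' deposited table, and Tia1 at 31.4 and 32.9 FPKM. Rbm38 was at 30.6 and 31.4 FPKM there, and Msi1, a marker of crypt progenitors, at 11.5 and 11.4 FPKM in the authors' deposited table. Of 71 splicing events with enough reads in 9 of these genes, none was called (authors' FDR below 0.05 and an absolute difference of at least 0.1), and 7 were at an unadjusted MATS p below 0.05, beside 1.56% and 10.3% of the 53918 events with enough reads over all genes.

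The splicing tables, made with MATS, list for each event the reads that include or skip a region in a first set and a second set of 3 libraries. Nothing in their headers ties a set to a genotype, so the direction of a splicing change between WT and PTBP1_KO is not given. An inclusion level is the share, from 0 to 1, of the form that holds the region among both forms compared by an event. It was computed here per library from the reads and the effective lengths of both forms. It is not a share of all transcripts of the gene, and events on the same exon can give unlike levels. Differences are the first set minus the second set, and tests are those of the authors. An event had enough reads at a mean of 20 over the 6 libraries, and it was called at an FDR below 0.05 with an absolute difference of at least 0.1.

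Of the 126 events of the members, 115 had enough reads, with means per library from 21.3 to 2532 reads and a median of 217. Called were 7 of the 115 (6.09%), beside 1.56% of 53918 events over all genes. At any size of difference, 13 had an FDR below 0.05 in the authors' deposited table, beside 3.76% of all events. The sets did not overlap in 21 of the 115, beside 9.15% of all events. By gene, 4 of the 9 members with an event of enough reads had at least 1 called (Celf1, Celf2, Mbnl2 and Esrp1), beside 6.61% of 9337 genes, but the members also had more events each, a median of 12 against 4. The 7 events cover 5 separate regions, since those of Celf1 share a region and so do those of Celf2. Of the 7, 6 had the higher inclusion in the second set, while over all genes 543 called events were higher in the first set and 300 in the second. The median absolute difference of the members' events was 0.014, beside 0.008 over all genes.

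**Figure D2:**
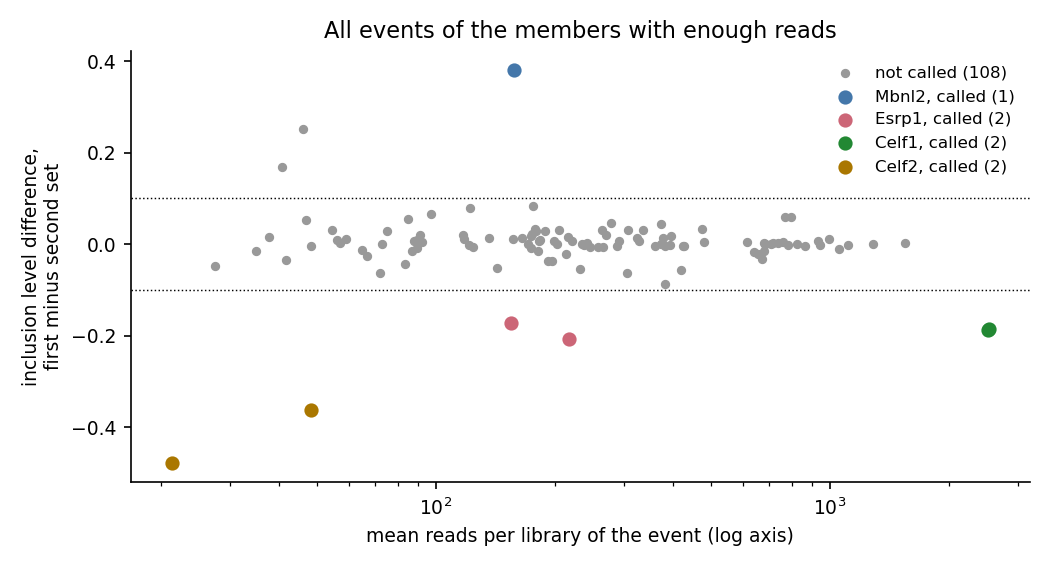
Inclusion level difference (first minus second set, authors' value) of the 115 events with enough reads against their mean reads per library (log axis), with dotted lines at a difference of 0.1. Uncalled events (grey, 108) lie mostly near 0, Mbnl2 is the called event above the upper line, and the Celf1 events, whose points coincide, have the most reads.

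Among the MBNL genes, the 36 nt exon of Mbnl2 had the widest difference among the members' skipped exons with enough reads. Its inclusion was 0.818, 0.638 and 0.748 in the first set, from 126, 221 and 151 reads. In the second set it was 0.323, 0.338 and 0.402, from 123, 141 and 184 reads. All 3 libraries of the first set were above all 3 of the second. The lowest of the first set had an exact 95% binomial interval from 0.569 to 0.704, and the highest of the second had one from 0.332 to 0.476, which cover counting error only. The difference was 0.38 with an FDR of 2.96e-12 in the authors' deposited table. Where the same exon is joined to the last exon, inclusion was lower, at 0.165, 0.158 and 0.118 against 0.054, 0.073 and 0.075, and the sets again did not overlap (difference 0.080, FDR 0.0113 in the authors' deposited table).

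The matching exon of Mbnl1 was not called. Its inclusion was 0.609, 0.815 and 0.720 in the first set and 0.805, 0.745 and 0.702 in the second, from 109 to 273 reads per library. The sets overlapped, and the difference was -0.036 with p = 0.658 and an FDR of 1 in the authors' deposited table. A second event on this Mbnl1 exon, with a farther downstream exon, was at 0.327, 0.548 and 0.296 against 0.464, 0.324 and 0.424. Its sets overlapped too (difference -0.014 in the authors' deposited table). In Mbnl3 the exon was nearly absent, at 0.013, 0.050 and 0.033 in the first set and 0, 0.011 and 0 in the second, from 60 to 98 reads. The sets did not overlap, with the first higher, but only 0 to 5 reads per library included the exon. The test was not passed (difference 0.028, MATS p = 0.0464, FDR 0.514 in the authors' deposited table). Whether Mbnl2 differs from its paralogs in this change was not tested. Over the same 6 libraries, the event with the most reads on this exon ranged from 0.609 to 0.815 in Mbnl1. It ranged from 0.323 to 0.818 in Mbnl2 and from 0 to 0.050 in Mbnl3.

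The 54 nt exon had an inclusion level above 0.4 in either gene. In Mbnl2 it was at 0.770, 0.637 and 0.747 in the first set and 0.621, 0.663 and 0.620 in the second. One library of the first set lay inside the range of the second, and the test was not passed (difference 0.083, p = 0.0312, FDR 0.390 in the authors' deposited table). Mbnl1 had 0.488, 0.553 and 0.612 against 0.477, 0.593 and 0.582, with overlapping sets (difference 0.0, FDR 1 in the authors' deposited table). A second event on the same Mbnl1 exon, with another neighbouring exon and only 23 to 59 reads per library, had the smallest p of the gene. It was at 1.0, 0.903 and 0.844 in the first set and 0.769, 0.734 and 0.739 in the second (difference 0.168, p = 0.00647, FDR 0.126 in the authors' deposited table). None of the 21 events of Mbnl1 with enough reads was called, and 2 were at an unadjusted MATS p below 0.05, a share near the 10.3% of all events.

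**Figure D3:**
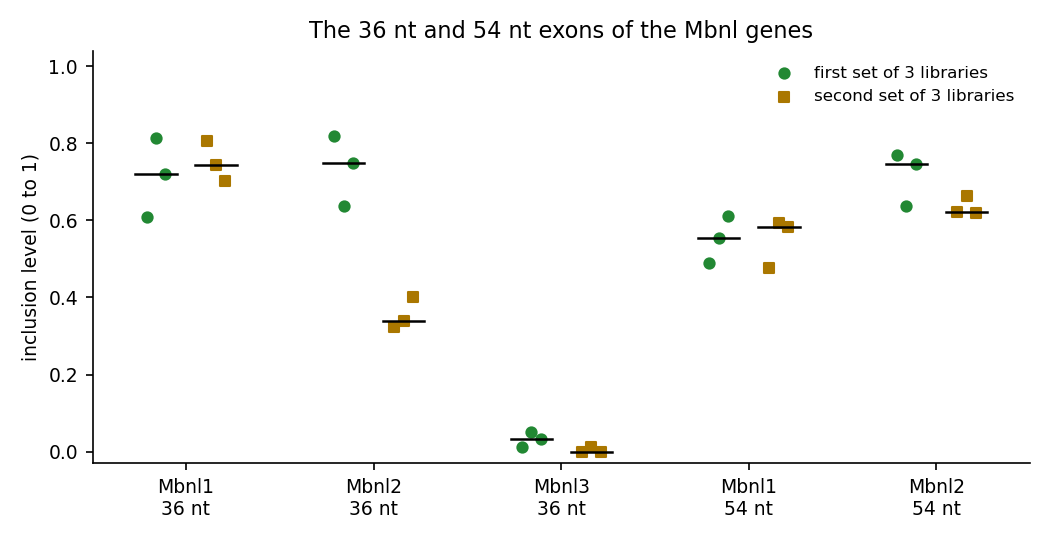
Inclusion level per library of the 36 nt exon of Mbnl1, Mbnl2 and Mbnl3 and the 54 nt exon of Mbnl1 and Mbnl2, in the first set (circles) and second set (squares), with a bar at the median. In the Mbnl2 36 nt exon the medians are 0.748 and 0.338, and Mbnl3 stays at or below 0.050 in every library.

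For Mbnl3, the event with the smallest p was a 247 nt exon at chrX:51164418-51164664. It was included at 1.0, 0.886 and 0.781 in the first set and 0.585, 0.494 and 0.834 in the second, from 29 to 64 reads. One library of the second set exceeded the lowest of the first, and the FDR was 0.0827 with a difference of 0.251 in the authors' deposited table. This is a wide difference at low depth that did not pass.

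Esrp1 had 5 of its 24 events at an FDR below 0.05 and 2 called, all at the 3' end of the transcript or on a pair that includes it. The 151 nt exon, read between the exon of 169 nt before it and the 110 nt exon after it, was included at 0.262, 0.469 and 0.401 in the first set, from 114, 205 and 197 reads. In the second set it was at 0.559, 0.614 and 0.582, from 230, 264 and 293 reads. Every library of the second set was higher than every library of the first, and the difference was -0.208 with an FDR of 0.00244 in the authors' deposited table. Joined directly to the last exon it was included less, at 0.115, 0.162 and 0.148 against 0.229, 0.217 and 0.241 (difference -0.087, FDR 0.000223 in the authors' deposited table).

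The 110 nt exon that follows, read after the 151 nt exon, was at 0.655, 0.718 and 0.651 in the first set, from 87, 137 and 150 reads. In the second set it was at 0.828, 0.878 and 0.834, from 171, 206 and 178 reads. The sets did not overlap, with the second higher (difference -0.172, FDR 0.000142 in the authors' deposited table). Read after the 169 nt exon, with the 151 nt exon skipped, it was at 0.245, 0.219 and 0.227 against 0.298, 0.291 and 0.271 (difference -0.056, FDR 0.180 in the authors' deposited table). These events share exons and reads and are not independent of each other. A further pair of events under the FDR limit sets the 110 nt exon against a far upstream exon of 199 or 187 nt, and their differences of 0.060 and 0.059 count the upstream exon as included in the authors' deposited table.

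In the annotation, these exons set how the coding sequence of Esrp1 ends. With the 151 nt exon and the last exon alone, 169 coding bases follow the 169 nt exon, and with both alternative exons 223 do. With the 110 nt exon alone 88 coding bases follow, and with neither exon 4. Both exons were thus included more in the second set, where the annotated form with both has the longest coding end. The reads of each event were counted separately, so the share of whole transcripts with both exons was not measured.

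**Figure D4:**
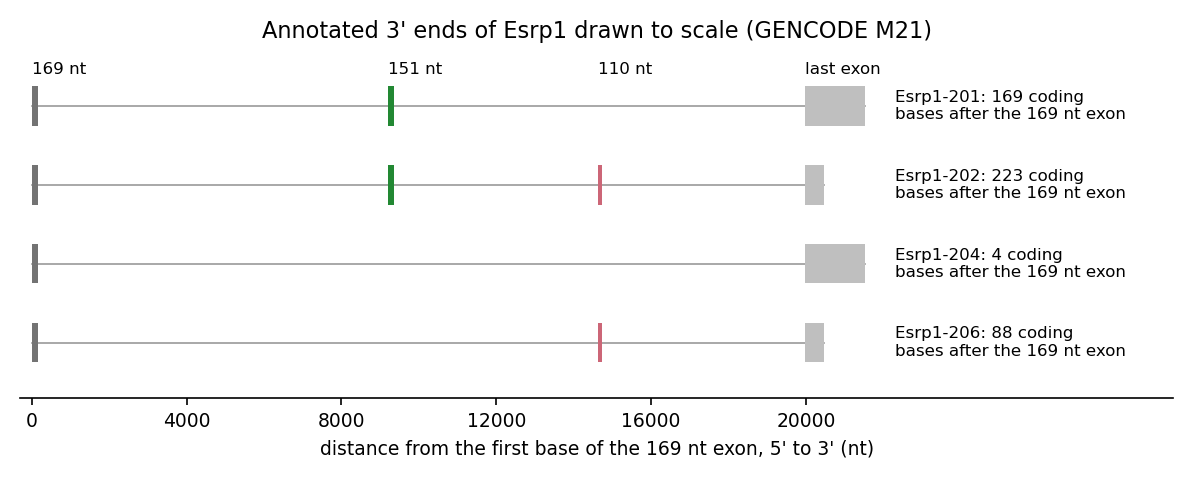
Annotated 3' ends of Esrp1 in GENCODE M21, drawn to scale by distance from the first base of the 169 nt exon (x axis, nt), with exons as boxes and introns as lines. The 4 forms differ in the 151 nt and 110 nt exons, and 4 to 223 coding bases follow the 169 nt exon.

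Farther upstream in Esrp1, an alternative 5' splice site that adds 12 nt at chr4:11357460-11357471, held at 0.579, 0.621 and 0.569 against 0.609, 0.615 and 0.643 from 490 to 815 reads. The sets overlapped at high depth (difference -0.033, FDR 0.753 in the authors' deposited table).

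Esrp2 had 26 events with enough reads, of which 4 were at an unadjusted MATS p below 0.05 (beside 10.3% of all events) and none was called, the largest absolute difference being 0.052. Its event with the smallest p was a 43 nt exon at chr8:106133451-106133493, included at 1.0, 0.987 and 0.981 in the first set and 1.0, 0.892 and 0.974 in the second. The difference of 0.034 had an FDR of 0.0224 in the authors' deposited table, and 16 of the 20 reads that skip the exon in the second set came from a single library. A 302 nt exon of the gene lies between the same flanking exons, and the same reads skip both exons together. It was at 0.892 in that library (difference 0.033, FDR 0.0231 in the authors' deposited table), which is not a separate observation.

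In Celf1, the called change lay in the 3' untranslated region. An alternative 3' splice site there includes or removes 3075 nt at chr2:91013491-91016565. That region starts 125 bases along the genome after the annotated stop codon, a distance that counts intron bases. Of the 125, 88 (chr2:91013403-91013490) are listed as a retained intron event of their own. That intron was retained at 0.554, 0.508 and 0.537 in the first set and 0.369, 0.583 and 0.484 in the second. The sets overlapped, at 48 to 118 reads per library (difference 0.054, FDR 0.759 in the authors' deposited table). Inclusion of the 3075 nt region was 0.205, 0.252 and 0.207 in the first set, from 1550, 2582 and 2393 reads, and 0.457, 0.328 and 0.441 in the second, from 2927, 2383 and 3238 reads. All libraries of the second set were above those of the first, at a mean above that of any other gene's events among the members (difference -0.187, FDR 1.03e-08 in the authors' deposited table). The retained intron event over nearly the same bases (chr2:91013403-91016565, 3163 nt) gave 0.203, 0.248 and 0.204 against 0.450, 0.325 and 0.436 (difference -0.185, FDR 4.74e-09 in the authors' deposited table). It has the same skipping reads as the splice site event, so it is not a separate observation. A region of this length gathers many more reads than a junction, and without division by the lengths of the forms these differences were -0.0745 and -0.0736. Elsewhere in Celf1, an alternative 3' splice site that adds 12 nt at chr2:91006620-91006631 was at 0.777, 0.763 and 0.750 against 0.731, 0.775 and 0.722, with overlapping sets (FDR 1 in the authors' deposited table).

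Celf2, at a low level, had 3 of 8 events with enough reads, and 2 were called. An event listed as an alternative 3' splice site in its 3' untranslated region includes 1104 nt at chr2:6545676-6546779. That region starts 306 bases along the genome after an annotated stop codon, again with intron bases counted. Of the 306, 262 (chr2:6546780-6547041) are listed as a retained intron event of their own. That intron was retained at 1.0, 1.0 and 0.858 in the first set and 1.0, 1.0 and 1.0 in the second, from 7 to 48 reads. Reads spliced across it would show the splice site in use. They numbered 0, 0 and 2 in the first set and 0, 0 and 0 in the second. Inclusion of the 1104 nt region was 0.388, 0.263 and 0.409 in the first set, from 13, 41 and 14 reads, and 1.0, 0.495 and 1.0 in the second, from 36, 19 and 5 reads. The sets did not overlap, but reads that skip the region numbered 2, 10 and 2 in the first set and 0, 2 and 0 in the second. For the library with 5 reads, the exact 95% binomial interval ran from 0.0956 to 1. The difference was -0.478 with an FDR of 0.00786 in the authors' deposited table. The retained intron event over the same region (chr2:6545676-6547041, 1366 nt) gave 0.462, 0.430 and 0.677 against 1.0, 0.656 and 1.0, with sets that overlap (difference -0.362, FDR 0.00350 in the authors' deposited table). Its skipping reads are those of the first event, so it is not a separate observation. Both calls were lost where 20 reads were required in every library, and without division by the form lengths the differences were -0.145 and -0.0694.

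**Figure D5:**
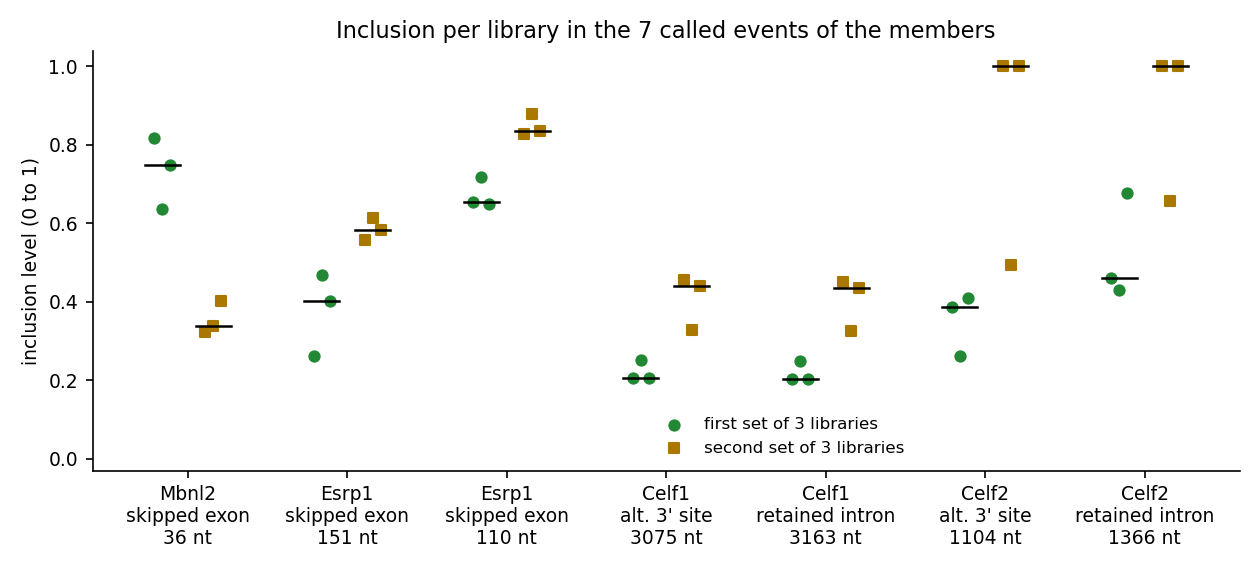
Inclusion level per library of the 7 called events, in the first set (circles) and the second set (squares), with a bar at the median of each set. Mbnl2 is higher in the first set, the other 6 are higher in the second, and the sets overlap in the Celf2 retained intron alone.

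Rbfox2, Khdrbs1 and Qki had no called event. In Rbfox2, 11 events had enough reads and 1 was at an unadjusted MATS p below 0.05, beside 10.3% of all events. The smallest p belonged to an alternative 3' splice site of 3 nt at chr15:77117065-77117067. It was at 0.944, 0.932 and 0.890 in the first set and 0.936, 0.753 and 0.878 in the second, with 1 low library in the second (difference 0.066, p = 0.0211, FDR 0.245 in the authors' deposited table). A 12 nt alternative 3' splice site of the same gene at chr15:77098073-77098084 was used in near equal parts, at 0.496, 0.584 and 0.489 against 0.602, 0.480 and 0.440, from 18 to 58 reads. Khdrbs1 had 2 events, both with inclusion levels near 1 at 462 to 955 reads per library, with differences of at most 0.003 and p = 1 in the authors' deposited table. Qki had 1 event, an alternative 3' splice site with 4 to 29 reads per library, too few to be used.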

How the data were processed

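Crypt cell libraries (3 per genotype) were grouped by sample title. The submitters' processing notes name STAR 2.6.1d, Trimmomatic 0.38 and bcl2fastq 2.20 beside Cufflinks and Cuffdiff, and the build mm10. The annotation the authors used is not given in the sources used here. The authors deposited 1 FPKM value per group, the log2 fold change (PTBP1_KO relative to WT), and a p-value and q-value per gene, per the file headers. The 5 MATS tables hold counts of reads on junctions and exon bodies, as deposited by the authors. Their inclusion level difference is treated as a deposited score with its p-value and FDR, per the file headers. Their 10 columns with a level for each library were left aside.

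Inclusion was recomputed as inclusion reads over their form length, divided by the sum of both forms so scaled (Python 3.11.15, pandas 2.3.3, scipy 1.17.1), tested on simulated data. It matched the authors' difference to within 0.00112. A planned logistic model was replaced by the authors' tests because the sets have no stated genotype. A gene was called at q below 0.05. The pseudocount was 1 FPKM. Named are all members, each called event, the event with the smallest p in members without one, related regulators above 10 FPKM, and called events of target genes. A few other events of members, and the Fgfr2 pair, were chosen after their values were seen. Members and lists were chosen with earlier results of these data known. Of the members, 9 matched by symbol and 1 by a RefSeq synonym. Intervals are exact binomial ones, and reads without molecular identifiers are not independent molecules. Exon sequences come from GENCODE M21 transcripts. A few items of the lists, among them 1 sequence, are not reported here.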

Additional observations from a re-analysis of the deposited data

How the results depend on the processing

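No member gene was called at a q below 0.1, with a minimum of 1 FPKM or with a minimum change of 1.5-fold, and 1 (Celf2) was at an unadjusted p below 0.05. The median log2 ratio of 0.19 became 0.20 with a pseudocount of 0.1 FPKM, 0.17 centred on all tested genes and 0.18 over members of at least 1 FPKM. With that pseudocount the log2 ratio of Celf2 went from 0.80 to 1.29 and that of Qki from 0.20 to 0.56. The 7 called events became 11 at a minimum difference of 0.05, 4 at 0.2 and 13 with no minimum (added after seeing the data), each following from the limit itself. They stayed 7 at a mean of 10 reads and became 5 at a mean of 50 reads or with 20 in every library, where both Celf2 events were lost, and 5 with shared regions counted once. Leaving out 1 library at a time, with no test, reversed no difference. The ranges were 0.339 to 0.429 for Mbnl2, -0.253 to -0.150 and -0.194 to -0.157 for the 151 nt and 110 nt exons of Esrp1, -0.227 to -0.163 and -0.224 to -0.162 for the splice site and intron of Celf1, and -0.646 to -0.394 and -0.477 to -0.305 for those of Celf2. Without division by form lengths the Mbnl2 difference was 0.368 and those of Esrp1 -0.195 and -0.122. No paired analysis was possible because the gene table holds 1 value per group and the splicing headers name neither genotype nor replicate, so the planned logistic model with a block was not run. Depth limits the Celf2 events and leaves Qki without a usable one.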

Other observations

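Genes with exons known to be controlled by ESRP or MBNL proteins were examined as well, and every event of these genes was counted. In 8 ESRP target genes, 112 splicing events had enough reads and 10 were called (8.93%), beside 1.56% of 53918 events over all genes. Of the 10, 8 were higher in the first set and 2 in the second, while over all genes 543 called events were higher in the first set and 300 in the second. The ESRP target genes also had more events each, a median of 13.5 against 4. Whether the called exons are themselves ones that ESRP proteins control was not tested. In the authors' deposited table, inclusion was higher in the first set for exons of Arhgef11, a guanine nucleotide exchange factor (33 nt, difference 0.285, and 120 nt, 0.235), and for a 36 nt exon of the junction scaffold Magi1 (0.302). Ctnnd1, which encodes a catenin of adherens junctions, had 4 called events with differences from 0.149 to 0.267 in the authors' deposited table, 3 of which share a region. Inclusion was higher in the second set for a 93 nt exon of the kinase Slk (-0.162) and a 126 nt exon of Cd44 (-0.111, FDR 0.0351, from as few as 13 reads in a library) in the authors' deposited table. The exon pair of Fgfr2 that ESRP proteins are best known for was read at 0.937, 1.0 and 1.0 against 1.0, 1.0 and 1.0 for the 148 nt exon (p = 1 in the authors' deposited table).

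Of the MBNL target genes, 6 had 51 events with enough reads and 1 was called (1.96%, near the 1.56% over all genes), the 36 nt exon of Mbnl2 itself. Without Mbnl1 and Mbnl2, added after seeing the data, 18 events in 4 genes remained and none was called.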
